A study of Mus musculus with 32 samples.

Results

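The mesothelial lineage markers examined here are 10 genes that the mesothelium, the thin sheet of cells lining the pleural, peritoneal and pericardial cavities, is known for. The members were found by gene symbol, and 6 of the 10 had a row among the 39676 gene rows of the counts: Upk3b, Muc16, Lrrn4, Gpm6a, Wt1 and Krt19. Msln, Upk1b, Krt8 and Krt18 were not analysed here. All 6 were followed across whole tumors from 32 mice, 8 in each of 4 groups.

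The groups were formed by the injected cell line and the site of injection. AB1 cells, a murine mesothelioma line, were grown in BALB/c mice (500000 cells per mouse) and AE17 cells, a second such line, in C57BL/6 mice (1000000 cells per mouse), either in the pleural cavity (intrapleural, IPL) or under the skin of the right flank (subcutaneous, SC). All mice were female and 8 to 10 weeks old, every tumor was taken 10 days after inoculation, and the lungs and tissue around IPL tumors were removed before RNA extraction. Neither line carried a transgene or received treatment. Each model is therefore one cell line in one mouse strain, and line, strain and number of injected cells cannot be told apart. Each library came from a different mouse.

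Mesothelial cells are epithelium-like cells of mesodermal origin. They make a slippery apical surface rich in mucins and membrane glycoproteins, keep keratin filaments, and express transcription factors of the coelomic lining. The pleural cavity is lined by such cells over both the lung and the chest wall, and the subcutaneous space has no mesothelial lining. Mesothelioma arises from the mesothelium, and several of these genes are used to recognise normal mesothelium and mesothelioma. In RNA from bulk tumors, fewer cells of a type and less RNA per cell cannot be told apart.

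Sequencing depth was between 15432258 and 20649645 counts per mouse. Levels are given as counts per 1000000 counts of a library (CPM) after trimmed mean of M values (TMM) scaling, and 3 counts in a library, taken as the smallest detectable number, corresponded to between 0.139 and 0.19 CPM. Sequencing lane was partly tied to group. All 8 AB1 IPL libraries were in lane 3 and all 8 AE17 SC libraries in lane 1, whereas 5 AE17 IPL libraries shared lane 2 with 6 AB1 SC libraries, the other 3 AE17 IPL libraries were in lane 1 and the other 2 AB1 SC libraries in lane 3. In each IPL group a single mouse was the extreme for all 6 markers. AB1 IPL replicate 2 had the highest level in its group and AE17 IPL replicate 1 the lowest level in its group. Of these mice, only AB1 IPL replicate 2 was flagged in the check for outlying mice described below.

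The markers were scarce transcripts in most tumors. The group median was below 1 CPM for 6 of 6 genes in AB1 IPL tumors, 6 of 6 in AB1 SC tumors, 5 of 6 in AE17 SC tumors and 1 of 6 in AE17 IPL tumors. SC tumors of both mesothelioma lines thus held Upk3b, Muc16 and Lrrn4, defining markers of the mesothelium, at or near 0. In AE17 IPL tumors, where most were detected, the mean level per kilobase of exon was 3.01 CPM for Krt19, 0.793 for Upk3b, 0.722 for Gpm6a, 0.681 for Lrrn4, 0.287 for Wt1 and 0.0390 for Muc16.

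**Figure D1:**
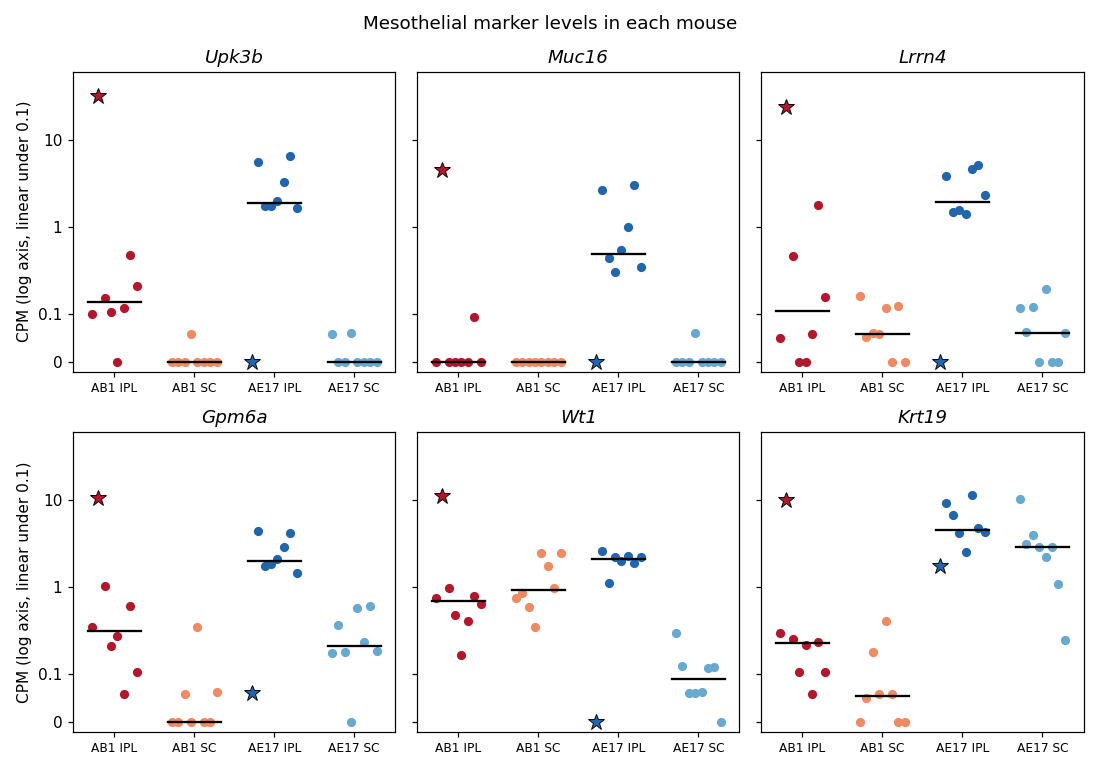
Levels of the 6 markers in each of 32 mice, one panel per gene, with CPM on a symmetric log axis that is linear under 0.1 and the 4 groups along the horizontal axis. Points are mice, black lines are group medians and stars are AB1 IPL replicate 2 and AE17 IPL replicate 1. Apart from replicate 1, the AE17 IPL mice sit above every AE17 SC mouse for each gene except Krt19, and AB1 IPL replicate 2 is the highest AB1 mouse in each panel.

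The first comparison asked whether the site of growth changed the markers in the AE17 model. Without a filter on low counts, 5 of the 6 genes were higher in IPL than in SC AE17 tumors, from Upk3b and Muc16, which were nearly undetected in SC tumors, to Gpm6a, which was detected at both sites. Krt19 was abundant at both sites and did not pass the test. The filter on low counts that the main test applies left Krt19 as the 1 member tested. Of the other 5, all except Muc16 had 10 or more counts in 7 of 8 IPL mice, and 5 members were tested when IPL replicate 1 was left out. In the main test Krt19 had a log2 fold change of 0.76 (SE 0.51, edgeR adjusted p = 0.370), so that 0 members were called, with 0 at an unadjusted p under 0.05, against 5.73% of all genes tested. limma-voom called Krt19, the 1 member it tested, against 27% of all genes (14.1% as higher). DESeq2 called 5 of 6, against 9.87% (4.89% as higher). Unless another fit is named, folds and calls in the following paragraphs are from the same edgeR test without the filter. For AE17 all 6 were tested in it and 1.93% of 28453 genes were called, 0.763% as higher in IPL tumors.

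Upk3b encodes uroplakin 3B, a membrane protein of mesothelial cells related to the plaque proteins of the bladder lining. It lies on chr5:136038496-136046487 (plus strand, GRCm38, GENCODE M21). In AE17 IPL tumors its level was 0 CPM in the lowest mouse, 1.86 at the median and 6.55 in the highest, with a mean of 2.80 ± 2.20 CPM (SD, n = 8). In AE17 SC tumors it was 0 in 6 of 8 mice and 0.0602 CPM in the highest. The levels of 7 IPL mice exceeded that of each SC mouse, the exception being replicate 1 with 0 counts, and the second lowest IPL mouse had 1.65 CPM. Only 0.756% of all genes had as many as 7 of 8 IPL mice above all SC mice. Summed over mice, 381 counts stood against 2, a depth-scaled ratio of 188 (95% exact counting interval 51.6 to 1555). The log2 fold change was 6.97 (SE 0.92, edgeR adjusted p = 0.00321).

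Muc16 encodes a very large membrane-bound mucin that binds mesothelin, on chr9:18495455-18674530 (minus strand). AE17 IPL tumors spanned 0 to 2.99 CPM with a median of 0.488, and the second lowest had 0.298. AE17 SC tumors held 1 count in all, in replicate 4. As for Upk3b, 7 of 8 IPL mice exceeded every SC mouse. The summed counts were 140 and 1, a ratio of 138 (95% counting interval 24.3 to 5485), and the log2 fold change was 6.11 (SE 1.02, edgeR adjusted p = 0.00700). The call was lost when SC replicate 4 was left out (7.12, SE 1.57, edgeR adjusted p = 0.0603).

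Lrrn4, on chr2:132868305-132880891 (minus strand), encodes a leucine-rich repeat membrane protein used as a mesothelial marker. Its lowest, median and highest levels were 0, 1.94 and 5.11 CPM in AE17 IPL tumors and 0, 0.0608 and 0.190 CPM in AE17 SC tumors. The groups overlapped only through IPL replicate 1, the second lowest IPL mouse being at 1.39 CPM. The ratio of summed counts, 345 to 9, was 37.8 (95% counting interval 19.7 to 83.3) and the log2 fold change 5.08 (SE 0.78, edgeR adjusted p = 0.00604).

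The 200 bases that lie from 250 to 51 before the RefSeq transcription start (GRCm38.p6) are shown for these 3 genes, since they are the members with the largest site difference in AE17 tumors. The windows were searched on both strands for 5 short motifs. They were the TEAD site, spelled GGAATG and present in 10.7% of 32851 such windows, the TATA box, spelled TATAAA and present in 9.14%, and the GC box, spelled GGGCGG and present in 24.6%. Also searched were the site of GATA factors, spelled AGATAA and present in 8.42% of windows, and the Fos-Jun site, spelled TGANTCA and present in 5.57%. Capitals mark the 1 kind of match found, the TEAD site or its reverse complement. It began 241 bases before the start in Upk3b and 196 before the start in Lrrn4, and none of the 5 motifs occurred in the Muc16 window.
Upk3b, chr5:136038246-136038445 (plus strand): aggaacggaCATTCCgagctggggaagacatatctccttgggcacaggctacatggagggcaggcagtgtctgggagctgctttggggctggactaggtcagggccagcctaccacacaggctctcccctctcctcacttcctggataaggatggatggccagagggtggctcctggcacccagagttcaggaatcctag
Lrrn4, chr2:132880913-132881112 (minus strand): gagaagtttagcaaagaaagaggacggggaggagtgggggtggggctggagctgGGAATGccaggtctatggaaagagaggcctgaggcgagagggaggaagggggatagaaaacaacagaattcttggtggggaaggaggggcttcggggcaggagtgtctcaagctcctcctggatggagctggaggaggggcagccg
Muc16, chr9:18674654-18674853 (minus strand): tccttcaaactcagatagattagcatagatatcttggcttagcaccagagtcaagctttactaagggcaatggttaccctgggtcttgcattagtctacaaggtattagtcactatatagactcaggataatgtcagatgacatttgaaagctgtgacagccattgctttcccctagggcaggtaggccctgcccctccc

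Gpm6a encodes a tetraspan membrane glycoprotein of the proteolipid family that is also abundant in neurons. It lies on chr8:54954843-55060871 (plus strand) and overlaps 5 unconfirmed gene models on the same strand. It reached 3 counts in 7 of 8 AE17 SC tumors, where Lrrn4 did in 1 and Upk3b and Muc16 in 0, and its lowest, median and highest level there was 0, 0.207 and 0.595 CPM. AE17 IPL tumors held 0.0593, 1.98 and 4.33 CPM, and all of them except replicate 1 lay above every SC tumor. The log2 fold change was 2.99 (SE 0.59, edgeR adjusted p = 0.0197), and the 315 and 38 summed counts gave a ratio of 8.17 (95% counting interval 5.82 to 11.8). In the fit of all 32 mice Gpm6a was called with the filter and not called without it (edgeR adjusted p = 0.0524).

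Wt1 encodes the zinc finger transcription factor of the coelomic lining, on chr2:105126529-105173616 (plus strand). The antisense gene Wt1os ends at 105126510 and does not overlap it. Most AE17 IPL tumors lay close together for Wt1, with a median of 2.10 CPM, a highest value of 2.55 and a second lowest of 1.11, beside 0 in replicate 1. AE17 SC tumors spanned 0 to 0.291 CPM with a median of 0.0898. Again 7 IPL mice exceeded all SC mice, and the log2 fold change was 3.99 (SE 0.60, edgeR adjusted p = 0.00528).

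Krt19 encodes a type I keratin of simple epithelia, on chr11:100140810-100148665 (minus strand). Its lowest, median and highest levels were 1.72, 4.46 and 11.5 CPM in AE17 IPL tumors and 0.242, 2.87 and 10.2 CPM in AE17 SC tumors, so that the ranges overlapped almost entirely. Just 1 IPL mouse exceeded all SC mice, and 49.9% of all genes had at least 1 such mouse. The highest SC value, in replicate 1, stood far above the next at 3.89 CPM. Without the filter the log2 fold change was 0.75 (SE 0.54, edgeR adjusted p = 0.502). Leaving out 1 mouse at a time, with or without the filter, gave 0.51 to 1.26. Without SC replicate 1, Krt19 was again not called (edgeR adjusted p = 0.0782 with the filter and 0.158 without it).

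For the 5 markers that separated the sites, the same mouse, IPL replicate 1, was the exception each time. That tumor held 0 counts of Upk3b, Muc16, Lrrn4 and Wt1, 1 of Gpm6a and 29 of Krt19, and its skeletal muscle transcripts were also the lowest of its group, at a sum of 58.3 CPM against a group median of 569. Replicate 8, which held all 6 markers, was nearly as low in skeletal muscle genes, at 67.5 CPM. Without replicate 1 the same 5 markers were called, the lowest edgeR adjusted p being 4.02e-06, with 0.509% of genes called higher. That mouse was the lowest of its group for each marker, so leaving it out raises each difference by construction. Replicates 2, 7 and 6 had the highest mean ranks over Upk3b, Lrrn4, Wt1, Muc16 and Gpm6a, at 7.2, 6.8 and 6.4 of 8.

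Lane moved with site in these tumors. Within lane 1, which held 3 IPL and 8 SC libraries, the 5 markers were again called with edgeR, with log2 fold changes of 7.41 for Upk3b, 6.60 for Muc16, 5.73 for Lrrn4, 4.24 for Wt1 and 3.27 for Gpm6a, against 0.0838% of genes called higher. The 3 IPL libraries there were replicates 6, 7 and 8, so replicate 1 was not among them. With lane as a covariate over all 32 mice and no filter, 0 of 6 were called (edgeR adjusted p from 0.0662 to 0.806, 5 at an unadjusted p under 0.05), and with the filter Wt1 alone was (edgeR adjusted p = 0.0418). Over all alternative settings that tested them, the lowest log2 fold changes were 6.66 for Upk3b, 5.65 for Muc16, 4.85 for Lrrn4, 3.81 for Wt1 and 2.79 for Gpm6a.

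**Figure D2:**
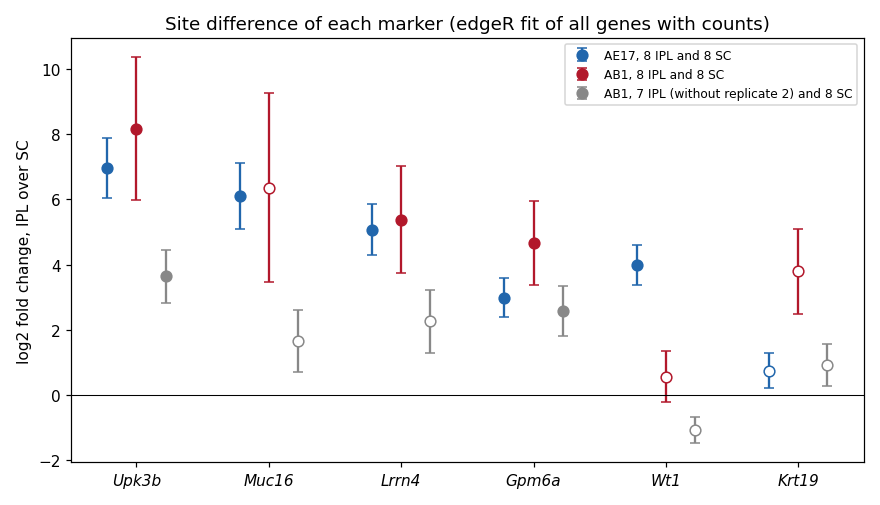
Log2 fold change of IPL over SC tumors for the 6 markers from edgeR without a filter on low counts, with bars of ± SE, for AE17, AB1 and AB1 without IPL replicate 2. Filled symbols passed an adjusted p of 0.05. The AE17 values run from 0.75 for Krt19 to 6.97 for Upk3b with 5 filled, and each AB1 value moves down when replicate 2 is left out, with Wt1 passing from 0.57 to -1.07.

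In the AB1 model, most of the marker RNA of the IPL group was in 1 tumor, and Upk3b and Gpm6a were the markers called higher in IPL tumors both with and without it when no filter was used. Replicate 2 alone held 590 of the 613 Upk3b counts of the 8 IPL tumors, 449 of 501 for Lrrn4, 206 of 288 for Wt1, 186 of 211 for Krt19, 83 of 85 for Muc16 and 198 of 250 for Gpm6a. Values are therefore given with and without this tumor. The main test kept Wt1 as its 1 tested member (log2 fold change 0.56, SE 0.73, edgeR adjusted p = 0.607), and called 0, with 0 at an unadjusted p under 0.05, against 23% of all genes. DESeq2 called Upk3b and Gpm6a, 2 of 5 tested, against 20.7% of genes (12% as higher). It did so after replacing the count of replicate 2 as an outlier for all 6 markers (for Upk3b from 590 to 1). limma-voom tested 1 member and called 0, against 31.5% of genes. Without the filter, 3 of 6 were called higher, against 7.99% of all genes.

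Among the surface proteins, Upk3b reached 3 counts in 4 of 8 AB1 IPL tumors. Its level was 0 CPM in the lowest, 0.135 at the median, 0.465 in the second highest and 31.4 in replicate 2. AB1 SC tumors held 1 count in all, in replicate 4, and 7 IPL mice exceeded all SC mice, a count that 3.81% of genes reached. The log2 fold change was 8.17 (SE 2.19, edgeR adjusted p = 0.0230) with replicate 2 and 3.64 (SE 0.82, edgeR adjusted p = 0.00446) without it, when 23 counts stood against 1 for a ratio of 23.8 (95% counting interval 3.86 to 980). Upk3b was not called when AB1 SC replicate 4, which held the single SC count, was left out (9.21, SE 3.56, edgeR adjusted p = 0.170).

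Gpm6a was the other marker called with and without replicate 2. AB1 IPL tumors had 0.0583, 0.308 and 10.5 CPM as lowest, median and highest level, the second highest being 1.02, and AB1 SC tumors 0, 0 and 0.349. There were 3 IPL mice above all SC mice. The log2 fold change was 4.67 (SE 1.30, edgeR adjusted p = 0.0266), or 2.58 without replicate 2 (SE 0.76, edgeR adjusted p = 0.0291), against 6.80% of genes then called higher. The call was lost without AB1 SC replicate 2, 4 or 7 (edgeR adjusted p from 0.0516 to 0.0521).

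Lrrn4 and Muc16 were not called without replicate 2. Lrrn4 had a median of 0.107 CPM in AB1 IPL tumors, with 1.77 in the second highest and 23.9 in replicate 2, and spanned 0 to 0.158 CPM in AB1 SC tumors. Its log2 fold change of 5.38 (SE 1.63, edgeR adjusted p = 0.0414) became 2.26 without that mouse (SE 0.96, edgeR adjusted p = 0.152), and the call was also lost without IPL replicate 7 (edgeR adjusted p = 0.0529) or without any 1 of the 8 SC mice (edgeR adjusted p from 0.0621 to 0.0756). Muc16 was at 0 counts in 6 of 8 AB1 IPL tumors and in all 8 SC tumors, with 4.41 CPM in replicate 2 and 0.0930 in the next, and was not called either way (edgeR adjusted p = 0.222 with and 0.304 without that mouse). It was called in the fit blocked on replicate number (6.18, SE 1.09, edgeR adjusted p = 0.0195).

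Wt1 behaved otherwise in the AB1 model. AB1 SC tumors held 0.349, 0.911 and 2.46 CPM as lowest, median and highest level, and AB1 IPL tumors 0.162, 0.684 and 10.9, the second highest being 0.967. Of the IPL mice, replicate 2 alone exceeded all SC mice, and 57.9% of genes had at least 1 such mouse. The log2 fold change was 0.57 with this mouse (SE 0.77, edgeR adjusted p = 0.668) and -1.07 without it (SE 0.40, edgeR adjusted p = 0.0966), so the direction turned on 1 tumor and neither value passed.

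Krt19 was scarce in AB1 tumors. Its median was 0.224 CPM in IPL tumors, with 9.89 in replicate 2 and 0.297 in the next, and 0.0543 in SC tumors, whose highest was 0.407. The log2 fold change was 3.79 with replicate 2 (SE 1.29, edgeR adjusted p = 0.0669) and 0.92 without it (SE 0.64, edgeR adjusted p = 0.402). In the fit of all 32 mice, replicate 2 included, it was called (edgeR adjusted p = 0.00837).

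Transcripts of other tissues in replicate 2 did not share one direction. The summed skeletal muscle genes (117 CPM, with at least 603 in the other 7 mice) and heart muscle genes (6.38 CPM) were the lowest of the AB1 IPL group, and the summed skin keratinocyte genes (6.22 CPM) the highest. The adipocyte sum was 140 CPM, the second highest of the group after replicate 1 (158 CPM), with 12.5 to 46.8 CPM in the others. The lung epithelial sum was also the group's highest (30.9 CPM), of which Napsa made up 28.5 CPM, while Sftpa1, Sftpb, Nkx2-1, Cldn18 and Muc5b were at 0 in that tumor. Their part in the marker levels was not tested. The proportions of the members in this tumor were set against those of the 7 AE17 IPL tumors that held them. Per kilobase and as a percentage of Upk3b, Lrrn4 stood at 72.3% (66.2% to 134% in the AE17 tumors) and Wt1 at 19.9% (16.5% to 76.6%), within the AE17 range. Krt19 at 60.0% (137% to 741%), Gpm6a at 36.8% (70.3% to 117%) and Muc16 at 1.88% (2.31% to 6.34%) lay below it. Of the SC libraries 2 shared a lane with the IPL libraries, and within that lane edgeR called 0 of 6 without the filter (adjusted p from 0.619 to 0.790, 0 at an unadjusted p under 0.05), against 0.559% of genes. With lane as a covariate over all 32 mice and no filter, edgeR also called 0 of 6 in the AB1 model (adjusted p from 0.225 to 0.770, 4 at an unadjusted p under 0.05).

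**Figure D3:**
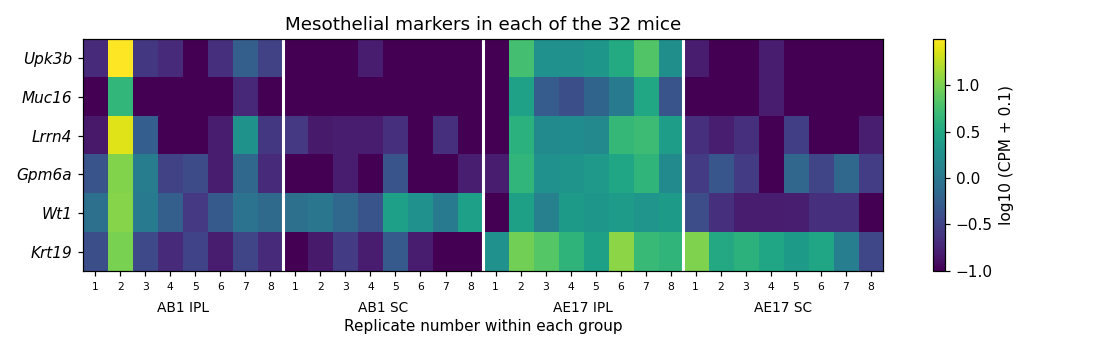
Heat map of log10(CPM + 0.1) for the 6 markers (rows) in 32 mice (columns, grouped by model and site). The column of AB1 IPL replicate 2 is bright in every row, AE17 IPL replicate 1 is dark in every row except Krt19, and Krt19 is bright in AE17 tumors of both sites.

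Whether the site changed the markers by different amounts in the 2 models was tested as the AB1 site effect minus the AE17 site effect in one fit over all 32 mice. Of 5 members tested, Wt1 alone was called, its site effect being lower in AB1 by a log2 difference of -3.42 (SE 1.07, edgeR adjusted p = 0.0226), against 8.62% of genes called lower and 20.5% called in either direction. Without AB1 IPL replicate 2 the difference was -5.06 (SE 0.75, edgeR adjusted p = 6.02e-05), against 9.13% of genes called lower. These values are from the fit with the filter. Without the filter and with all mice, Wt1 was again the only call, of 6 tested (edgeR adjusted p = 0.0443). With lane as a covariate the difference was -3.01 and was not called (edgeR adjusted p = 0.298). The differences for Krt19 (3.05), Gpm6a (1.68), Upk3b (1.17) and Lrrn4 (0.31) had edgeR adjusted p values between 0.10 and 0.946, so a different site effect was not shown for them. Without AB1 IPL replicate 2 they fell to as low as 0.18, -0.41, -3.37 and -2.82, in that order, and Wt1 alone was called. That tumor was the highest of its group for every marker, so leaving it out lowers each difference by construction.

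The models were next compared at one site, first in SC tumors. Wt1 was higher in AB1 and Krt19 and Gpm6a higher in AE17. No member passed the filter of the main test, which called 63.7% of genes. Without the filter edgeR called 3 of 6, against 39.5% of genes. The share called higher in AB1 was 19.1% and the share called lower 20.4%. Every AB1 SC mouse had more Wt1 than every AE17 SC mouse, as 8.32% of genes did, with a log2 difference of 3.5 (SE 0.48, edgeR adjusted p = 3.4e-06). Krt19 differed by -5.05 (SE 0.77, edgeR adjusted p = 6.1e-05), with 7 of 8 AB1 mice below every AE17 mouse, and Gpm6a by -2.18 (SE 0.73, edgeR adjusted p = 0.0195). Upk3b, Lrrn4 and Muc16, at or near 0 in both groups, did not differ detectably at this depth. With lane as a covariate in the fit of all 32 mice, Wt1 (4.10, edgeR adjusted p = 0.0144) and Krt19 (-4.24, edgeR adjusted p = 0.0473) were called and Gpm6a was not (-1.28, edgeR adjusted p = 0.602), and Gpm6a was also not called in that fit without lane (edgeR adjusted p = 0.139). AB1 SC and AE17 SC libraries shared no lane. Between these groups, cell line, strain, number of injected cells and lane cannot be told apart.

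In IPL tumors the main test covered 5 members and called 0 (1 at an unadjusted p under 0.05, Krt19 with a log2 difference of -1.99 and an edgeR adjusted p of 0.0657), against 59.1% of genes. DESeq2 called 3 of 6 as lower in AB1, against 23.7% of genes called lower, and limma-voom 4 of 5, against 32.9%. Without the filter edgeR called 0 of 6, against 36.2% of genes. Without AB1 IPL replicate 2 the same fit called 6 of 6 as lower in AB1, against 18.2% of genes called lower. That tumor was chosen as the highest of its group for each of the 6 markers, so leaving it out lowers each difference by construction. The share of all genes is not a like measure for a mouse chosen in this way. The log2 differences were then -5.57 for Muc16, -4.86 for Krt19, -3.99 for Upk3b, -2.75 for Lrrn4, -2.58 for Gpm6a and -1.54 for Wt1, with edgeR adjusted p values from 5.91e-08 (Krt19) to 0.0356 (Lrrn4). AB1 IPL and AE17 IPL libraries shared no lane. With lane as a covariate over all 32 mice, replicate 2 included, edgeR called 0 of 5 (adjusted p from 0.575 to 0.975, 0 at an unadjusted p under 0.05), with log2 differences of 3.30 for Gpm6a and 0.14 for Krt19.

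By group median, Upk3b, Muc16, Lrrn4 and Gpm6a were highest in AE17 IPL tumors, and Krt19 had the order AE17 IPL, AE17 SC, AB1 IPL and AB1 SC. Wt1 ran in the order AE17 IPL, AB1 SC, AB1 IPL and AE17 SC. In the fit over all 32 mice the first 3 groups of this order did not differ from their neighbours beyond the spread between mice (edgeR adjusted p = 0.610 for AE17 IPL against AB1 SC and 0.60 for AB1 SC against AB1 IPL), whereas AB1 IPL and AE17 SC did (edgeR adjusted p = 0.000219). That fit included AB1 IPL replicate 2. Without this mouse, Wt1 was called lower in AB1 IPL than in AE17 IPL tumors, as given above.

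Mice of one group that were high for one marker tended to be high for the others. After subtraction of the group means of log2 CPM, all 10 pairs of the 5 members whose mean reached 1 CPM were positively correlated over 32 mice, with Pearson's r from 0.65 to 0.92 (10 of 10 passed a two-sided permutation test with 100000 permutations within groups, Benjamini-Hochberg adjusted over 10 pairs). The closest pair was Upk3b and Lrrn4 (r = 0.92, adjusted permutation p = 0.0003). On ranks within groups 1 pair of 10 passed, Wt1 and Gpm6a (Spearman's rho 0.54, adjusted permutation p = 0.0324), with rho from 0.20 to 0.54 over all pairs. A further setting left out, for each pair, the 2 mice farthest from the 32-mouse median of the first gene's log2 CPM. There 10 of 10 pairs passed with r from 0.39 to 0.83 (adjusted permutation p at most 0.0348). Those mice were not picked by departure from the group mean, and need not include AE17 IPL replicate 1.

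Within the 8 AE17 IPL mice, Upk3b and Gpm6a followed each other most closely (r = 0.995, adjusted exact permutation p = 0.00198; rank correlation 0.952, adjusted exact permutation p = 0.0114). Without replicate 1, r over the other 7 was 0.98 for this pair, 0.86 for Upk3b and Lrrn4 and 0.06 for Wt1 and Krt19, as a description.

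**Figure D4:**
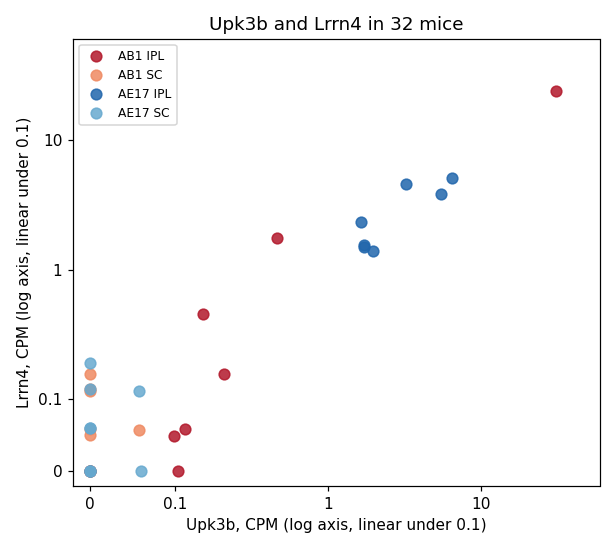
Upk3b (horizontal) against Lrrn4 (vertical) in CPM for each of 32 mice, coloured by group. SC mice of both models gather near 0, 7 AE17 IPL mice lie between 1.65 and 6.55 CPM of Upk3b, and AB1 IPL replicate 2 lies alone at 31.4 and 23.9 CPM.

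Among 13977 other genes whose mean reached 1 CPM, those whose departures from the group means over 32 mice were most like the mean of Upk3b and Lrrn4 were Myrf (r = 0.848), Gm12840 (0.839), Pkhd1l1 (0.819), Saa3 (0.788) and the immunoglobulin segment Igkv5-37 (0.767). Without AB1 IPL replicate 2, r fell to 0.635, 0.585, 0.671, 0.601 and 0.204. Igkv5-37 was at 47.35 CPM in that tumor and had a median of 0 in every group, so its likeness rested on 1 mouse. The genes most like Krt19 were Bst1 (0.826), Cfb (0.805), Ildr2 (0.80), Ppp1r3b (0.792) and Tmem45a (0.789), and without that tumor their r ran from 0.644 to 0.737. By the same measure without that tumor, Pkhd1l1 stayed among the 5 genes most like Upk3b and Lrrn4, with Sfrp1, Aldh1a1, Wnt2b and Lama2, and Bst1 among the 5 most like Krt19, with Gm3716, Mst1, Sema3b and Hspb2. These values are descriptions over mice that in part share a lane, with no test.

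A further 16 genes known from mesothelium were then read beside the members. In AE17 tumors 4 of the 16 were called higher at the IPL site and 0 lower without the filter, with a median log2 fold change of 0.77 against a median near 0.00 over all genes. They were Gata5, a zinc finger factor of the cardiac and coelomic mesoderm (5.57, SE 0.90, edgeR adjusted p = 0.00931), Pkhd1l1, a large receptor-like membrane protein (4.39, SE 0.65, edgeR adjusted p = 0.00529), Nkain4, which binds a sodium pump subunit (3.39, SE 0.62, edgeR adjusted p = 0.00858), and Gata4 (0.74, SE 0.18, edgeR adjusted p = 0.0448). In AE17 SC tumors Gata5 was at 0 counts in all 8 mice, while 7 IPL mice held between 0.185 and 0.652 CPM and replicate 1 held 0. With the filter 2 of 11 were called, and within lane 1 Pkhd1l1 and Nkain4 remained. Without IPL replicate 1, Slpi (1.20, SE 0.24, edgeR adjusted p = 0.0236) took the place of Gata4 among the 4.

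Other mesothelial genes were abundant at both sites and did not pass in AE17 tumors. Pdpn, a mucin-like glycoprotein of mesothelium and lymphatic vessels, had medians of 169.99 CPM in IPL and 161.23 CPM in SC tumors, and AE17 IPL replicate 1 held the group's highest level of it, 226.49 CPM, while the members were at their lowest there. Bnc1, encoding the zinc finger protein basonuclin, had medians of 4.69 and 5.63 CPM. Neither of these, nor Rspo1, Cldn15, Dmkn and Tbx18, was called in either model without the filter.

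In AB1 tumors 7 of the 16 were called higher in IPL tumors and 1 lower, against 7.99% and 5.55% of all genes, with a median log2 fold change of 1.41. The higher genes were Pkhd1l1 (7.55), Slpi, a secreted protease inhibitor (2.81), Krt7, a type II keratin (1.92), Anxa8 (1.49), Aldh1a2, which makes retinoic acid (1.33), Gata4 (0.82) and Efemp1, an extracellular matrix protein (0.37). Calb2, the calcium-binding protein calretinin used to diagnose mesothelioma, was lower in IPL tumors by a log2 fold change of -1.23 (SE 0.25, edgeR adjusted p = 0.00243), at medians of 0.326 and 0.782 CPM. Without replicate 2, 5 higher and 1 lower remained (Pkhd1l1 5.53, Aldh1a2 1.21, Anxa8 1.17, Krt7 1.04, Gata4 0.71 and Calb2 -1.26). Replicate 2 was the highest AB1 IPL tumor for 13 of the 16, against 16% of all genes, the exceptions being Calb2, Tbx18 and Efemp1.

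**Figure D5:**
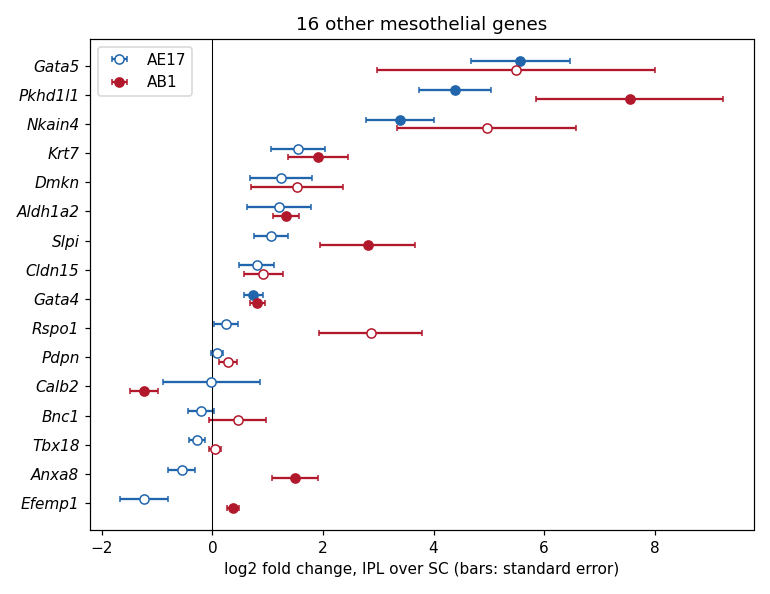
Log2 fold change of IPL over SC tumors with bars of ± SE for 16 further mesothelial genes in both models, from edgeR without a filter. Filled symbols passed an adjusted p of 0.05, 4 in AE17 (Gata5, Pkhd1l1, Nkain4 and Gata4) and 8 in AB1, where Calb2 is the one below 0.

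Genes linked to the members by function or family were read against the same shares of all genes (7.99% higher and 5.55% lower in AB1, 0.763% higher in AE17). Of 17 genes of keratins, cell junctions and their regulators, 4 were higher and 1 lower in AB1 IPL tumors, or 3 higher and 1 lower without IPL replicate 2, among them the junction proteins Cldn4 (2.70) and Jup (1.62) and the adhesion protein Cdh1 (-1.83), and 2 were higher in AE17 IPL tumors, Cldn3 (3.37) and Jup (0.56). Of these AE17 calls, Jup was lost without IPL replicate 1 (edgeR adjusted p = 0.0802) and both were lost within lane 1 (edgeR adjusted p = 0.0832 for Cldn3 and 0.483 for Jup). Of 8 relatives of the members, Lrrn2, a paralog of Lrrn4, was higher in IPL tumors of both models (2.64 in AB1 and 2.25 in AE17), and Lrrn1 (1.05) in AB1. Of 6 genes reported as WT1 targets, Wnt4 (5.42 in AB1 and 2.38 in AE17) and Podxl (0.65 and 0.61) were higher in IPL tumors of both, and Spry1 (0.92) in AB1, where Wt1 itself was not called. In AE17 the call of Podxl was lost without IPL replicate 1 (edgeR adjusted p = 0.0542) and within lane 1 (edgeR adjusted p = 0.414). The most abundant genes of these lists at the IPL site included Jup, with medians of 73.7 CPM in AB1 and 82.5 CPM in AE17, and Podxl, with 62.8 CPM in AE17.

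Markers of other cells that a dissected tumor can hold were read for the same comparisons. Their part in the called markers was not tested, since the fit with a lung epithelium score as a covariate held only Wt1 in AB1 and Krt19 in AE17, neither of them called in the main test. Lung epithelial genes were called higher in neither model (0 of 10, with 1 lower in AB1, Napsa at -0.67), and 8 of the 10 had a median below 1 CPM in each group. Their summed level was 10.8 to 30.9 CPM in AB1 IPL, 18.7 to 31.2 in AB1 SC, 21.2 to 29.5 in AE17 IPL and 14.1 to 40.8 in AE17 SC tumors. Skeletal muscle genes were higher in AB1 IPL tumors for 7 of 9, led by Ckm (4.28), Atp2a1 (3.96), Myh4 (3.69) and Tnnt3 (3.59), with summed levels of 117 to 5141 CPM in AB1 IPL and 55.6 to 536 in AB1 SC tumors. In AE17 tumors 0 of 9 were called, with sums of 58.3 to 894 CPM in IPL and 46.2 to 1430 in SC tumors. Heart muscle genes were higher for 4 of 8 and lower for 1 in AB1, with sums of 6.38 to 90.7 CPM in IPL and 6.09 to 14.8 in SC tumors, and higher for 2 of 8 in AE17, with 10.9 to 247 and 10.1 to 17.3 CPM. Adipocyte genes were higher for 1 of 6 in AB1, or 0 without IPL replicate 2, and for 0 in AE17, skin keratinocyte genes for 1 of 8 and 0, and nerve and Schwann cell genes for 0 of 6 in both, and of 4 leukocyte genes 1 was higher and 2 lower in AB1 with 0 called in AE17.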

How the data were processed

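Gene counts of 32 tumors were used as deposited. Per the labels and the study's methods, the authors extracted RNA from whole tumors, sequenced 50 bp single-end reads and mapped them with HISAT2 (2.0.4 in the submitters' processing notes, beside bcl2fastq 1.8.4) to make whole-number read counts per gene. The strand setting and the annotation version are not given in the sources used here. Of 39676 gene identifiers, 39495 matched GENCODE M21 (GRCm38), from which coordinates were taken. Promoter windows are from RefSeq. No member shared a stretch of 50 bases with another gene.

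Groups were taken from the sample labels. Depth was 15432258 to 20649645 counts per mouse. Levels are TMM-scaled CPM. Contrasts were fitted over all genes with edgeR 4.0.16 (R 4.3.3; filterByExpr, robust quasi-likelihood F test, two-sided, Benjamini-Hochberg adjusted p under 0.05). Because filterByExpr left 0 to 5 members tested per contrast, the planned fit without a filter was used for folds and calls. The difference of site effects is given from the filtered fit. Alternatives were DESeq2 1.42.0, limma 3.58.1 (voom with quality weights), other size factors, lane, a lung epithelium score, a replicate block and, for the site contrasts within models, leaving out each mouse. Permutations, intervals and plots used Python 3.11.15, NumPy 2.4.6, SciPy 1.17.1 and matplotlib 3.10.9. Intervals are exact for counts and, without molecular identifiers in the reads, cover counting error alone. The fits were tested on simulated data. The members and lists were chosen with earlier results of these data known. The genes that could be named were all members, all other mesothelial genes, up to 4 called genes of largest fold and the most abundant gene of each other list, and the 5 genes most like Upk3b with Lrrn4 and like Krt19. Chosen after seeing the data were the fits that join no filter with a left-out mouse, lane or block, leaving out AB1 IPL replicate 2 or AE17 IPL replicate 1 in the IPL contrast and the difference of site effects, and the AE17 IPL correlations.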

Additional observations from a re-analysis of the deposited data

Results flagged for a closer look

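Groups of 8 mice were checked for a highest or lowest mouse whose gap to its neighbour was large for the group's range. Of 23 groups checked, 12 held such a mouse, where chance gives about 1 in 20 for normally spread values. That rate does not hold for groups at 0 to a few counts, in which a single count stands apart by construction. Of the 12, 6 were the same tumor. AB1 IPL replicate 2 was far above the other 7 mice of its group for Upk3b (31.4 CPM), Lrrn4 (23.9 CPM), Wt1 (10.9 CPM), Gpm6a (10.5 CPM), Krt19 (9.89 CPM) and Muc16 (4.41 CPM). Krt19 at 10.2 CPM and Wt1 at 0.291 CPM stood apart in AE17 SC replicate 1, and Krt19 at 0.407 CPM and Gpm6a at 0.349 CPM in AB1 SC replicate 5. The remaining 2 values, Upk3b at 0.0581 CPM in AB1 SC replicate 4 and Muc16 at 0.0602 CPM in AE17 SC replicate 4, are each a single count in a group otherwise at 0.

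The site effect on Wt1 differed between the models, by a log2 difference of -3.42 (AB1 minus AE17, edgeR adjusted p = 0.0226), and was not called with lane as a covariate (-3.01, edgeR adjusted p = 0.298). In AE17 tumors 7 IPL mice of 8 exceeded all SC mice (0.756% of genes had as many), and in AB1 tumors 1 of 8 did (57.9% of genes had at least 1).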

How the results depend on the processing

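The main AB1 site count of 0 became 2 with DESeq2, 3 without the filter, 4 with all 32 mice in one fit, 3 with no filter and a replicate block (Upk3b, Gpm6a and Muc16, with Lrrn4 lost), and 0 to 3 when 1 mouse was left out. For AE17 it went from 0 to 5 with DESeq2, 1 with limma-voom, 5 without the filter, 1 with lane as a covariate, 4 with all 32 mice, 4 in one lane, 5 in one lane without the filter and 5 with the block and no filter, and 0 to 5 with 1 mouse left out. Between models, the SC count of 0 became 3, 3, 2 and 2 (DESeq2, no filter, lane, all mice), and the IPL count of 0 became 3, 4, 2 and 1 (DESeq2, limma-voom, block, all mice) and 0 to 6 with either of 2 mice left out (AB1 IPL replicate 2, AE17 IPL replicate 1). The single call for the difference of site effects became 0 with lane and at an adjusted p under 0.01. It was 1 without AB1 IPL replicate 2 and without AE17 IPL replicate 1, the 2 mice left out there. With a minimum of 10 counts in every mouse no member was tested, so no call was possible. Of 10 correlated pairs, 1 was left on ranks, 4 in AE17 IPL mice alone and 1 there on ranks. Directions turned for Wt1 between AB1 sites (-1.02 with DESeq2, -0.54 with limma-voom, -0.39 with the block with or without the filter, -1.07 to 0.77 with mice left out, from -1.06 with the filter), Upk3b between SC groups (0.42 with lane), and between IPL groups for Upk3b (-3.30 with DESeq2, -3.79 with limma-voom, -2.78 with the block, -3.99 to 0.37 left out), Lrrn4 (-3.28 with limma-voom, -2.34 with the block, -2.75 to 0.22, or -2.74 to 0.21 with the filter), Wt1 (-1.38, -1.31, -0.83 by DESeq2, limma-voom and block, -1.54 to -0.076, or to -0.079 with the filter), Krt19 (0.14 with lane) and Gpm6a (3.30 with lane). For the difference of site effects they turned for Upk3b (-3.83 with limma-voom, -3.37 to 0.97, or -3.36 to 1.02 without the filter), Lrrn4 (-3.50 with limma-voom, -1.20 with the block, -0.84 with lane, -2.82 to 0.12, or to 0.16 without the filter), Muc16 (-0.44 with DESeq2, -4.52 to 0.02) and Gpm6a (-0.41 to 1.5, or -0.40 to 1.53 without the filter). The low end of each left-out range was without AB1 IPL replicate 2, and the cause of the other changes was not tested. Replicate numbers did not pair the mice, which were different animals: same-numbered IPL and SC mice correlated at -0.302 to 0.053 in AB1 (0 of 8 pairs over 0.1) and -0.273 to 0.27 in AE17 (5 of 8). Depending on the library, 3 counts are 0.139 to 0.19 CPM, so that levels under 0.139 CPM rest on fewer than 3 counts.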
